A study of Caenorhabditis briggsae with 13 samples.

Results

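A group of 45 genes of the nematode Caenorhabditis briggsae was described here whose transcripts were present in the 4-cell embryo, were still close to their 4-cell level at 28 cells, and had fallen at least 8-fold by 190 cells. They were 45 of the 19528 genes on the array. The level of a gene was the log2 intensity of its probes minus the array's own 75th percentile of log2 intensity, averaged over the gene's probes and then over the arrays of a stage. A member had a 4-cell level of at least 1, a 28-cell level less than 1 away from it, no stage more than 1 above it, and a 190-cell level lower by at least 3. The members were thus chosen by their measured levels at 4, 28 and 190 cells, so that the hold to 28 cells and the total fall are no findings.

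The samples were whole embryos of strain AF16, with no other genotype or treatment, taken at the 4-cell stage (2 arrays) and at 28 cells (3), 55 cells (3), 95 cells (2) and 190 cells (3). Per the labels, the later stages lay 55, 80, 120 and 160 min after the 4-cell stage. Each of the 13 samples was RNA pooled from 50 embryos, copied into labelled RNA after repeated amplification and hybridised to a one-colour array of its own, and arrays of a stage were separate biological samples.

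In animals the first cell divisions run on messenger RNA that the mother placed in the egg. In Caenorhabditis, as elsewhere, much of this RNA is later degraded while the embryo's own genome is switched on, and different maternal transcripts are cleared at different times. Loss in the body lineages but not in the germ line precursors is a known pattern in C. elegans. Arrays of whole embryos measure the amount of a transcript. They do not separate maternal from newly made RNA, and in such bulk samples fewer cells holding a transcript and less of it per cell cannot be told apart.

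The files identify genes by WormBase number. None of the 45 identifiers (0 of 45) matched the reference gene table used here, so no member is given a name or a function, and lists of germ line, sperm, yolk or tissue genes could not be applied to check the samples for other material. Probe sequences were not used here.

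Several features of the arrays bear on the values below. The 75th percentile of intensity ranged from 234.8 to 546.6, and 39.7% to 67.9% of probes were well above background. The lowest percentile was that of 4-cell A. The lowest shares were those of 4-cell A (40.5%) and 4-cell B (39.7%), and the next was 47.5% on 95-cell A. All changes from the 4-cell level rest on the arrays 4-cell A and B. How far this difference in detection enters the changes was not tested. The arrays 55-cell C, 95-cell B and 190-cell C were scanned on a later date than the others and had the highest shares of such probes. For 28-cell C the scanner file repeated that of 190-cell C, so its scan date and detection flags are unknown, but its column in the deposited series table held other values and was used. On 4 arrays the stage tag disagreed with the sample title, and the titles were followed. These were replicate A of the 55-cell and of the 95-cell stage, and replicate B of the 28-cell and of the 190-cell stage.

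Staying within 1 of the 4-cell level at 28 cells was the less common course among strongly declining transcripts. Of 3647 genes with a 4-cell level of at least 1, 770 fell by at least 3 by 190 cells. 715 of these 770 had already fallen by at least 1 at 28 cells, and they are called the early-declining genes below. Their decline did not end there. From 28 to 190 cells their median change was -1.55. 505 of the 715 (70.6%) were called lower at 190 than at 28 cells, against 28.8% of all genes tested (limma, Benjamini-Hochberg adjusted p under 0.05). Among the 770, 158 genes (20.5%) changed by less than -4 between 4 and 28 cells and 298 (38.7%) by between -4 and -3. Another 176 (22.9%) changed by between -3 and -2, 83 (10.8%) by between -2 and -1 and 39 (5.06%) by between -1 and 0, and 16 (2.08%) were higher at 28 cells. From -4 upward the counts thinned out from range to range, with no gap at the limit of 1 that separates members from early-declining genes. The other 10 of the 770 rose too far at some stage.

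The genes nearest to the limits show how gradual these were. For the 4-cell level, the members just inside were WBGene00027275 (1.24), WBGene00034784 (1.33) and WBGene00027430 (1.41), and the genes just outside were WBGene00029260 (0.97), WBGene00037457 (0.94) and WBGene00027724 (0.90). For the log2 change from 4 to 28 cells, WBGene00034784 (-0.99), WBGene00027275 (-0.97) and WBGene00031476 (-0.93) lay inside and WBGene00039018 (-1.02), WBGene00039051 (-1.04) and WBGene00040454 (-1.04) outside. For the log2 change from 4 to 190 cells, WBGene00040819 (-3.002), WBGene00030526 (-3.01) and WBGene00028718 (-3.02) lay inside and WBGene00037970 (-2.99), WBGene00032210 (-2.96) and WBGene00036835 (-2.95) outside.

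Membership depended on how the arrays were scaled. The same rule gave 31 genes when arrays were centred on the median probe, 13 of them among the 45. It gave 44 genes after quantile normalisation (15 of the 45), 28 after scaling on spike-in probes (12 of the 45) and 9 after scaling on probes detected on all arrays (3 of the 45). The median change of the 45 genes from 4 to 28 cells was -0.56 in the scaling used, against -0.18 for all 13443 genes tested. It was -1.32 with centring on the median probe, 0.26 with quantile normalisation, 0.11 with spike-in scaling and 0.64 with scaling on detected probes. Both the direction and the size of the change before 28 cells therefore differed between scalings. With median centring this median change was larger than that from 55 to 95 cells. Over all genes tested the median change from 4 to 28 cells was -0.94, -0.24, 0.54 and 1.02 with these 4 scalings, in the same order. The 770 strongly declining and 715 early-declining genes and their shares are given for the scaling used only.

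The size of the later steps moved less with scaling. The median change of the 45 genes from 28 to 55 cells was -1.75 (3.38-fold lower) in the scaling used and lay between -1.44 and -1.71 with the other 4 scalings. From 55 to 95 cells it was -1.303 (2.47-fold lower), and between -0.97 and -1.34 with the others. From 95 to 190 cells it was -0.33, and between -0.35 and -0.47 with the others. The order of these 3 steps, from the largest fall to the smallest, was the same in all 5 scalings.

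**Figure D1:**
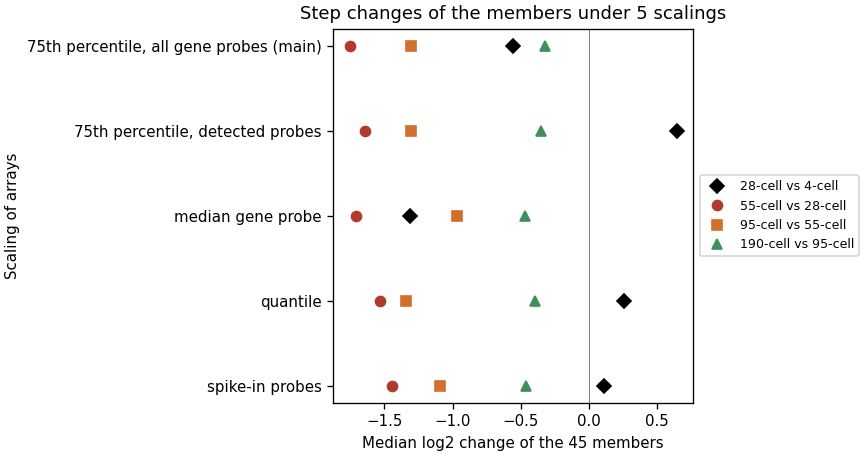
Median log2 change of the 45 members at each step (horizontal axis) under 5 scalings of the arrays (rows). Diamonds, the 28-cell vs 4-cell change, lie on both sides of 0, from -1.32 to 0.64, while the circles, squares and triangles for the 3 later steps keep their order below 0.

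The bulk of the decline fell between 28 and 95 cells on every array. Relative to each gene's 4-cell mean, the median change of the members was -0.57, -0.30 and -0.55 on 28-cell A, B and C. It was -2.11, -2.26 and -2.66 on 55-cell A, B and C, and -3.61 and -3.42 on 95-cell A and B. On 190-cell A, B and C it was -3.78, -3.71 and -3.96. These medians did not overlap between 28, 55 and 95 cells, and the step from 95 to 190 cells was smaller than the range of the 55-cell arrays. Expressed as a share of a gene's own fall from 4 to 190 cells, the median member had completed 10.8% at 28 cells, 56.7% at 55 cells (quartiles 45.3% and 67.4%) and 90.4% at 95 cells. The early-declining genes had completed a median 68.2%, 87.1% and 94.2% at the same stages. The 28-cell shares are set by the rule, and the later shares build on them and on the same 4-cell and 190-cell values, so all 3 pairs are a description.

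**Figure D2:**
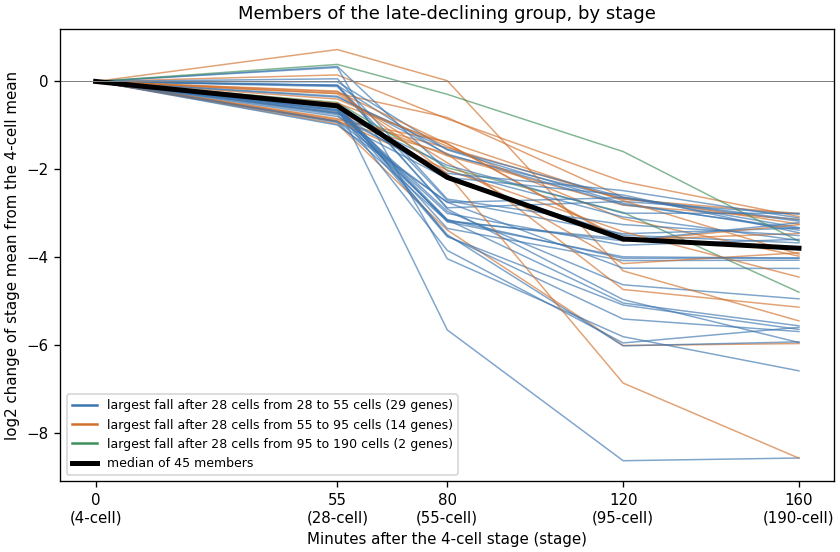
Stage mean of each of the 45 members as log2 change from its 4-cell mean (vertical axis) against minutes after the 4-cell stage (horizontal axis), coloured by the step after 28 cells with the largest fall, with the median in black. The median runs through -0.56 at 28 cells and the fall flattens after 95 cells in most genes, and 2 genes in green fall most at the end.

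The step from 28 to 55 cells took 25 min. Some members had begun to fall before it in the scaling used. 8 of the 45 were called lower at 28 than at 4 cells, against 30.7% of all genes tested (limma, adjusted p under 0.05). In 30 of the 45 every 28-cell array lay below every 4-cell array, against 39.3% of all genes. The rule limits the size of this earlier change, and its direction differed between scalings. All 45 genes were lower at 55 than at 28 cells, with log2 changes from -5.10 to -0.50. 37 of the 45 were called lower, against 15.1% of all genes tested (limma on all 13 arrays, Benjamini-Hochberg adjusted p under 0.05). Of the 715 early-declining genes, 354 (49.5%) were called lower and the median change was -0.90. On every 55-cell array 40 members lay below every 28-cell array, against 21.6% of all genes. This comparison shares the 28-cell arrays with the rule, which kept genes with high 28-cell values, so these counts describe the group and are no test of it. Among 55-cell arrays, the members were lowest on 55-cell C, the array of the later scan date, with 33 of 45 below their stage mean, and highest on 55-cell A, with 11 below. On the first scan date alone, which leaves out 28-cell C, 35 members were called lower, with a median change of -1.71. With spike-in scaling 7 members were called lower, against 2.16% of all genes, and 44 of the 45 had a negative change. The part of scan date in the spread at 55 cells was not tested.

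In the processing used, the fall of 1 gene at this step exceeded that of any other member. WBGene00031871 had levels of 1.66 and 2.04 on 4-cell A and B, and 1.12, 1.59 and 1.19 on 28-cell A, B and C. At 55 cells its levels were -4.08, -3.91 and -3.43. Every 55-cell array was thus far below every 28-cell array, and the fall was 34.3-fold (log2 change -5.10 ± 0.36 SE). With normexp background correction, an offset of 50 and the median spot signal, and without 28-cell C, the log2 change was -3.67. The size of this fall thus depended on the processing. The parts of background removal, offset, signal and the missing array cannot be told apart. At 95 cells the levels of WBGene00031871 were -6.43 and -7.14, where neither of its 2 probes was well above background. With the scanner's background subtraction it was therefore at least 112-fold lower at 95 than at 28 cells. At 190 cells, where each probe was above background on 1 of 3 arrays, the levels were -7.53, -6.36 and -6.27. In no other member was a stage without any probe above background.

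The step from 55 to 95 cells took 40 min and its own arrays entered the rule only through an upper limit. The rule nevertheless fixes that a member falls by over 2 on the log2 scale between 28 and 190 cells, which these 3 steps share. No such fall after 28 cells is set for the early-declining genes. The counts at this step are therefore a description as well. 43 of the 45 members were lower at 95 than at 55 cells, with log2 changes from -4.76 to 0.14. 28 members (62.2%) were called lower in limma, against 12.4% of all genes tested and 82 of the 715 early-declining genes (11.5%). No member was called higher (0 in limma, also 0 at an unadjusted p under 0.05), against 7.39% of all genes. Both 95-cell arrays lay below all 55-cell arrays for 39 members, against 31% of all genes. The median change was -1.303 in the members, -0.37 in the early-declining genes, -0.19 in all genes tested and -0.03 in 494 genes that stayed within 1 of a 4-cell level of at least 1 at every stage. The count rested on few arrays and on the scaling. With spike-in scaling it was 4, against 2.27% of all genes, with 43 members still lower. Without 95-cell A it was 17, and without the 4 arrays of contradictory stage tag 12, with 43 members lower in the latter setting and a median change of -1.28. Within the first scan date 22 were called lower and the median change was -1.42. Within the second date, which held 1 array a stage and allowed no test, it was -1.14 with 43 members lower.

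The largest fall at this step was that of WBGene00040887. Over the whole course its measured change was -8.58 and that of WBGene00031871 -8.57, and the latter was mostly not above background at 190 cells, so these are not ranked. Its levels were 7.54 and 7.25 on 4-cell A and B, and 7.14, 7.21 and 7.18 on 28-cell A, B and C. They were 5.84, 5.30 and 4.74 on 55-cell A, B and C, 0.58 and 0.48 on 95-cell A and B, and -1.05, -0.87 and -1.62 on 190-cell A, B and C. No 2 successive stages after 28 cells overlapped. From 55 to 95 cells it fell 27.1-fold (-4.76 ± 0.34 SE on the log2 scale). It was the only member called lower at each of the 3 steps after 28 cells, a pattern found in 0.424% of all genes tested.

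WBGene00033616, chosen after its values were seen, held its level to 55 cells before a steep fall. Its levels were 3.25 and 2.67 on 4-cell A and B, and 3.28, 3.71 and 4.07 on 28-cell A, B and C. At 55 cells they were 3.18, 3.26 and 2.49, still close to the 4-cell values. At 95 cells they were -1.49 and -1.21, and at 190 cells -2.59, -2.11 and -2.77. The fall from 55 to 95 cells was 20.1-fold (-4.33 ± 0.35 SE on the log2 scale). At 55 cells it had completed -0.31% of its total fall, the lowest share of the 45 genes.

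WBGene00028718 showed the opposite course and was likewise singled out after its values were seen, although it is also 1 of the genes nearest to a limit. Its levels were 4.58 and 4.55 on 4-cell A and B, and 4.95, 4.32 and 4.08 on 28-cell A, B and C. They were 1.76, 1.78 and 1.52 at 55 cells, 1.97 and 1.70 at 95 cells, and 1.57, 1.59 and 1.47 at 190 cells. The arrays of 55, 95 and 190 cells formed a single narrow range below all earlier arrays. From 28 to 55 cells it fell 6.78-fold, and the change from 55 to 95 cells was 0.14 ± 0.28 SE, within its error of 0. Both of its probes were well above background on every array with flags.

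**Figure D3:**
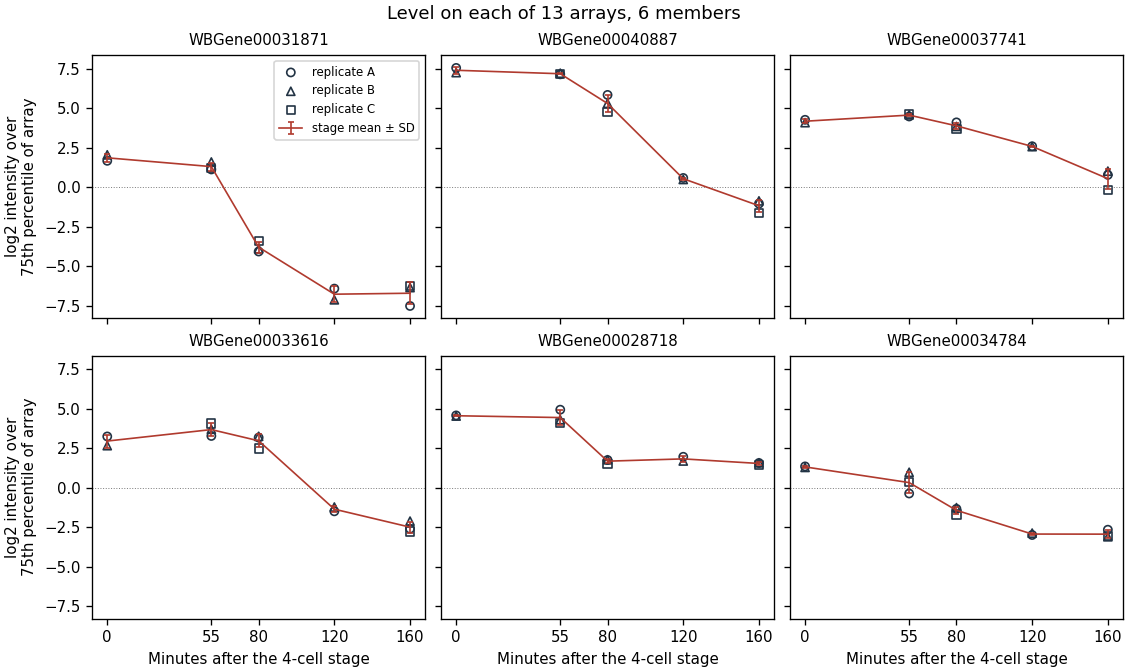
Level (log2 intensity minus the array's 75th percentile) of 6 members on each of the 13 arrays against minutes after the 4-cell stage, with stage means and SD in red. WBGene00031871 and WBGene00028718 drop between 55 and 80 min, WBGene00033616 and WBGene00040887 mainly between 80 and 120 min, WBGene00037741 to 160 min, and WBGene00034784 lies nearest to the limit at 28 cells.

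The members differed in when they fell. 29 had their largest fall from 28 to 55 cells, all 29 of them called lower there. 14 had it from 55 to 95 cells and 2 from 95 to 190 cells. Over the first 2 of these steps, 23 members were called lower at both, 14 only at the first and 5 only at the second. The other 3, WBGene00026794, WBGene00030526 and WBGene00031496, were called at neither and are named after their values were seen. Passing at one step and not at another is no test of a difference between steps, and the steps differ in length. Per 10 min, the median fall was -0.70 from 28 to 55 cells, -0.33 from 55 to 95 cells and -0.08 from 95 to 190 cells. A test of the difference between the first 2 rates, chosen after the data were seen, called the first faster in 14 members (5.21% of all genes) and the second faster in 1, WBGene00033616 (5.2% of all genes). The second count was 0 in limma without 55-cell A, without 55-cell B, or without the 4 arrays of contradictory tag, with 1 at an unadjusted p under 0.05 in each, and 2 with quantile normalisation. The difference between the whole steps, not divided by time, called the first larger in 7 members (3.76% of all genes) and the second larger in 2 (4.55%). Both contrasts also share the 28-cell arrays with the rule. Neither requires a fall at any step, so the shares of all genes can include genes that rose and are not shares of falling genes. With spike-in scaling neither direction was called in any member (0 in limma, with 3 and 1 at an unadjusted p under 0.05).

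**Figure D4:**
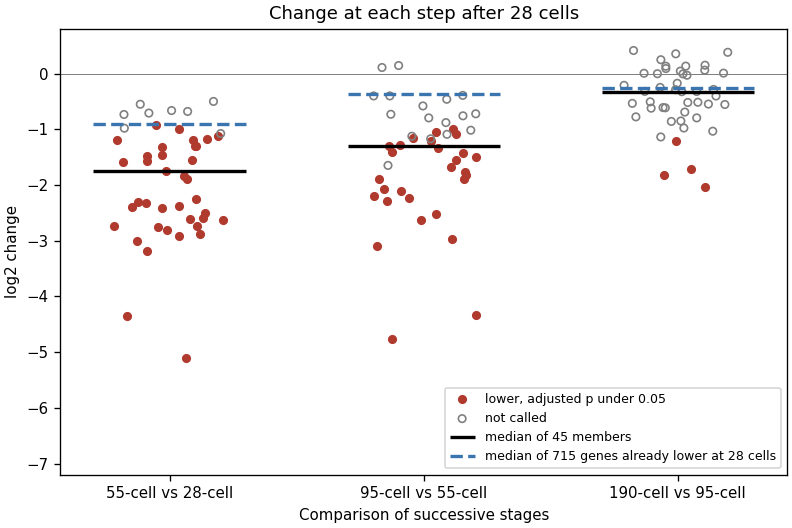
Log2 change of each of the 45 members at the 3 steps after 28 cells. Filled points were called lower (37, 28 and 4 members), open points were not called, black bars are the members' medians (-1.75, -1.303 and -0.33) and dashed bars the medians of the 715 early-declining genes (-0.90, -0.37 and -0.26).

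After 95 cells most members changed little. 33 were lower and 12 higher at 190 than at 95 cells, with log2 changes from -2.04 to 0.41. With median centring and with spike-in scaling 40 were lower and 5 higher. 4 members were called lower, against 2.66% of all genes tested and 42 of the 715 early-declining genes (5.87%). On 16 members every 190-cell array lay below both 95-cell arrays, against 14.9% of all genes. The 190-cell arrays entered the rule, so these counts are a description. The 4 called members were WBGene00037741, WBGene00040887, WBGene00032876 and WBGene00033636, with log2 changes of -2.04, -1.71, -1.82 and -1.22, and those not in the rule for naming are given because they are few. Without 95-cell A, 1 member was called, and without 190-cell B, 7. On the first scan date alone 1 was called, and 7 with scan date as a block. With spike-in scaling 0 were called in limma, with 3 at an unadjusted p under 0.05.

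WBGene00037741 had the largest fall of this step. Its levels were 4.26 and 4.08 on 4-cell A and B, and 4.47, 4.57 and 4.63 on 28-cell A, B and C. They were 4.10, 3.84 and 3.70 at 55 cells, 2.59 and 2.56 at 95 cells, and 0.77, 1.01 and -0.18 at 190 cells. Each stage from 55 cells on lay below the one before it on every array. From 55 to 95 cells the fall was 2.47-fold (-1.303 ± 0.33 SE on the log2 scale), and it was 4.11-fold from 95 to 190 cells (-2.04 ± 0.33 SE). It had completed 43.9% of its fall at 95 cells, the lowest share of the members at that stage.

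By the end of the series the transcripts were reduced but for the most part still measured. The fall from 4 to 190 cells ranged from -3.002 to -8.58 on the log2 scale, with a median of -3.80 (13.9-fold). In all, 19 genes fell at least 16-fold and 12 at least 32-fold. These sizes and counts are given for the scaling used only. Over all genes tested, the median change from 4 to 190 cells was -0.45 in that scaling. It was -0.97 with median centring, -0.22 with quantile normalisation, 0.54 with spike-in scaling and 0.84 with scaling on detected probes. The total change thus also moved with the scaling. All 100 member probes were well above background on every array with flags at 4, 28 and 55 cells. At 95 cells 92 of them were, and at 190 cells 93. In 37 of the 45 genes every probe stayed above background on all these arrays. The word lost in a description of the group thus holds for few of its genes at 190 cells, and decline describes the values of the others.

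Separate probes of a gene told the same course in most members. Each had at least an A and a B probe (37 genes with 2 probes, 7 with 3 and 1 with 5), and all 100 probes were lower at 190 than at 4 cells. Every probe fell from 28 to 55 cells in 45 of the 45 genes. The log2 change from 4 to 190 cells differed between A and B by a median of 0.28, against 0.33 over 8540 tested genes with both. In 36 members A and B each fell by at least 3, and in 38 each was within 1 of its 4-cell level at 28 cells. Since the rule used the mean of the probes, these counts describe how even that mean is. In 2 members A and B differed by over 2. They were WBGene00031496, with -2.50 for A and -5.45 for B, and WBGene00041553, with -2.28 for A and -4.52 for B, both named after their values were seen. In both genes the A probe alone would have missed the limit of -3. Saturated spots occurred at 4 or 28 cells in 4 members, WBGene00026232, WBGene00030528, WBGene00039246 and WBGene00040887, each on 1 of its probes. The unsaturated probes of these genes changed by -0.61, -0.34, -1.22 and -0.30 from 4 to 28 cells, so that WBGene00039246 was within 1 at 28 cells only with its saturated probe.

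**Figure D5:**
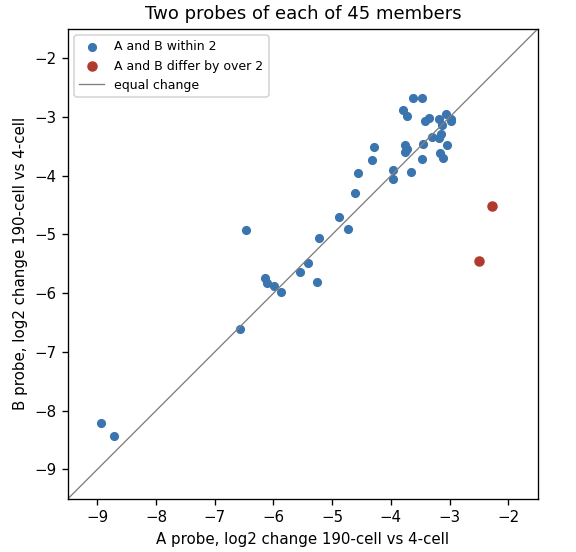
Log2 change from 4 to 190 cells of the A probe (horizontal axis) against the B probe (vertical axis) of each of the 45 members, with the line of equal change. 43 genes lie within 2 of each other, and the 2 red points are WBGene00031496 and WBGene00041553.

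The spread between arrays set what could be resolved. The median SD of a member between arrays of a stage was 0.15 at 4 cells, 0.31 at 28 and at 55 cells, 0.26 at 95 cells and 0.36 at 190 cells, below the median over all genes tested at each stage (0.19, 0.39, 0.34, 0.31 and 0.41). Data were simulated with independent normal noise and limma's spread for each gene, which is drawn towards a common value. The simulated spreads are thus more alike than those measured. In these data the 55-cell vs 28-cell comparison recovered 2.99% of 2-fold, 85.1% of 4-fold and 95.5% of 8-fold falls. Falls were planted in only 200 genes, which makes the adjustment stricter than in the real data, where 15.1% of genes were called lower. The recovered shares are thus no estimate of what the real comparison detects. At this step WBGene00037289 was called at a 1.89-fold fall and WBGene00026794 was not called at 1.97-fold, both chosen after their values were seen. Members not called at a step are not shown to have kept their level.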

How the data were processed

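Per the file headers, the scanner software was Agilent Feature Extraction 9.5.3.1. As deposited, a spot intensity is its processed signal, background-subtracted by the scanner and not scaled between arrays. Intensities in the series table equalled the scanner output on 12 arrays (relative tolerance 1e-06) and was used for all 13. Its 42034 gene probes are named by gene and letter, and 0 columns belonged to another series. Levels were computed as log2 of the deposited intensity, less the 75th percentile over gene probes of that array. For the tests, 207 probes with an outlier flag were left out, and a probe was kept if, in at least 1 stage, all flagged arrays had it well above background (24781 probes, 13443 genes). All 45 members and their 100 probes passed, being well above background at 4, 28 and 55 cells. Genes with several probes took their mean.

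All 13 arrays entered each test in limma 3.58.1 (R 4.3.3), two-sided, with Benjamini-Hochberg adjustment over 13443 genes. The fit was checked on simulated data (200 planted genes, 7 false calls). The members, the rule and the comparisons were chosen with earlier results of these data known. As no identifier matched a name, genes printed are the 2 with the largest measured total falls and those with the largest falls at the first and last step. Those nearest to a limit and all members with saturated spots are printed too. The others are marked as chosen after their values were seen or as given because they are few. Alternatives changed scaling, background correction (normexp with offset 50 on median spot signal), probe choice, filter, block and arrays.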

Additional observations from a re-analysis of the deposited data

How the results depend on the processing

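The number of arrays and the scaling at the early stages limit these results. The rule gave 9 genes with scaling on detected probes, 28 with spike-in scaling, which leaves out 28-cell C, and 70 with the brightest probe of each gene (3, 12 and 38 of the 45). Leaving out 1 array at a time it gave 43 to 54. The settings with normexp, with the first scan date alone and with scan date as a block left out 28-cell C as well. Members called lower from 28 to 55 cells numbered 7 with spike-in scaling and 34 to 39 without 1 array. From 55 to 95 cells they numbered 4 with spike-in scaling, 12 without the 4 arrays of contradictory tag and 17 to 31 without 1 array. From 95 to 190 cells they numbered 0 with spike-in scaling (3 at an unadjusted p under 0.05 in limma), 2 without those 4 arrays, 1 on the first scan date, 7 with scan date as a block and 1 to 7 without 1 array. Spike-in scaling called 2.16%, 2.27% and 0.208% of all genes lower at these steps. The median share of the fall at 55 cells was 37.8% with detected probes, 65.7% with median centring, 45.2% with quantile normalisation, 48.7% with spike-in scaling and 54.9% to 60.3% without 1 array. At 95 cells it was 86.7%, 88.6%, 86.7% and 84.6% with these 4 scalings, 94.1% with normexp, 90.0% with the A probe and 90.6% with the brightest probe. It was 88.7% without the 4 arrays, 91.5% on the first scan date and 88.3% to 92.6% without 1 array. Members falling faster per 10 min from 28 to 55 than from 55 to 95 cells numbered 6 without the 4 arrays, 9 on the first scan date and 9 to 16 without 1 array. Of the 5 genes with full values, the tested change kept its direction wherever it was fitted, and only WBGene00037741 from 95 to 190 cells was no longer called, with spike-in scaling (-2.18, limma adjusted p = 0.31). Sizes moved more, and the change of WBGene00031871 from 28 to 55 cells was -3.67 with normexp. With the replicate block (letters A, B and C as a term) 37, 32 and 4 members were called at the 3 steps. Whether the letters pair the samples could not be settled. 10 of 23 same-letter pairs correlated over 0.1 in their deviations from stage means (r from -0.50 to 0.53). The 44 pairs of unlike letters ranged from -0.53 to 0.53. With 2 or 3 arrays a stage, the deviations within a stage must cancel out, which ties these correlations to each other. In settings with 1 array at 95 cells, that array is assumed to vary like the other stages. The causes of these differences were not tested.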
